A study of Mus musculus with 15 samples.

Results

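Narrow sites of Polycomb repressive complex 1 (PRC1) binding, at which peaks of 5 lists met within less than 5000 bp, were examined in mouse cells. Overlapping peaks of the 5 lists on chromosomes 1 to 19 were merged wherever they shared at least 1 bp, which gave 11871 regions. Members were chosen by the peak lists themselves: a region was kept when it held at least 1 peak of each list and its merged width was under 5000 bp. This left 1251 narrow five-list regions, 10.5% of all merged regions and 66.5% of the 1880 regions with all 5 lists. The other 629 five-list regions were 5000 bp or wider and are called broad here. Widths, scores and positions of the same peaks are therefore descriptions, and no test was made on them.

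In the later state, precursor cells of the early cardiac mesoderm (MES), chromatin immunoprecipitation followed by sequencing had mapped the proteins Mel18, Cbx2, Ring1b and RYBP, and in undifferentiated embryonic stem cells (ESCs) it had mapped Mel18. All cells were of the mouse ESC line E14Tg2A. ESCs were kept in 2i medium with LIF, and MES were obtained from them with BMP4, for which the labels give 0.1 to 0.3 ng/ml as the doses that usually worked best. The same lot of Mel18 antibody was used in MES and in ESCs, the Ring1b antibody was home-made, and each precipitation took 5 ug of antibody. The labels name no genotype change or knock-down for these 5 samples and call the MES population enriched. Markers of the cell types were not checked, since RNA levels were not used here.

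PRC1 places ubiquitin on histone H2A and holds developmental genes in a repressed state. Ring1b is its catalytic subunit. Mel18, also named Pcgf2, is 1 of the alternative PCGF subunits that pair with Ring1b. In canonical PRC1 a Cbx protein such as Cbx2 reads the histone methylation laid down by PRC2 and can compact chromatin, whereas variant PRC1 carries RYBP or its relative YAF2 in place of a Cbx protein. In mouse ESCs, PRC1 is known to sit at CpG islands of silent developmental regulators, as short sites around gene starts or as long domains over gene clusters.

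On these chromosomes the MES lists held 8434 peaks for Ring1b, 7494 for RYBP, 4048 for Mel18 and 3600 for Cbx2, and the ESC Mel18 list held 6411. Each list came from 1 sample, so no difference between lists has a replicate check and no p-value is given. Read depth was unknown, and the number, width and score of peaks depend on it and on how peaks were called. The score is the authors' own value per peak. Its scale was not stated, and it was therefore turned into a percentile among all peaks of the same list, with a region given the percentile of its highest-scoring peak. Medians carry exact 95% order-statistic intervals and shares exact Clopper-Pearson 95% intervals. Both cover counting only and treat regions as independent.

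The narrow sites took up a substantial part of the 2 MES lists with the fewest peaks. They held 1350 MES Mel18 peaks (33.3% of that list), 1271 Cbx2 peaks (35.3%), 1431 Ring1b peaks (17.0%), 1292 RYBP peaks (17.2%) and 1503 ESC Mel18 peaks (23.4%). Their merged width had a median of 3175 bp (interval 3087 to 3233) and ran from 594 to 4996 bp, and all members together covered 4.01 Mb. Broad regions had a median of 7854 bp and covered 6.79 Mb. By width, 97 members were under 2 kb, 451 were from 2 to 3 kb, 433 from 3 to 4 kb and 270 from 4 to 5 kb. In 847 members (67.7%) every list had exactly 1 peak, against 123 broad regions (19.6%).

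The limit of 5000 bp does not fall in a gap of the widths. On the mm9 build, the widest members were chr8:107870028-107875023 with 4996 bp, chr5:34336733-34341725 with 4993 bp and chr3:105253369-105258348 with 4980 bp. The narrowest regions beyond the limit were chr4:64783913-64788915 with 5003 bp, chr8:130880342-130885344 with 5003 bp and chr2:74598070-74603076 with 5007 bp. Values on both sides of the limit overlapped, and MES Mel18, for instance, covered 3813 to 4401 bp of the members and 3616 to 4357 bp of the regions beyond it.

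A stretch covered by peaks of all 5 lists was present in 1223 of the 1251 members. It had a median length of 1339 bp (interval 1302 to 1391) and took up a median of 45.2% of the merged width (44.2 to 46.0), against 44.6% in broad regions. In 1022 members it was unbroken, and in 201 it came in several pieces. Of all bases of the members, 43.9% were covered by 5 lists, 15.9% by 4, 11.8% by 3, 12.2% by 2 and 16.1% by 1. In broad regions these shares were 45.9, 17.7, 17.6, 9.39 and 9.38%.

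The name of a site bound in all lists did not hold at base level for the other 28 members (2.24%), against 3 broad regions (0.477%). In these members the lists were linked only through a chain of overlaps. In each of the 28 the spans of at least 1 pair of lists lay apart. ESC Mel18 was in such a pair in 21 of them. The pair found apart in most members was Ring1b with ESC Mel18, in 12, followed by MES Mel18 with Ring1b in 8 and MES Mel18 with ESC Mel18 in 7. Cbx2 never lay apart from Ring1b or RYBP. An example lay on chromosome 2 (109532222 to 109535453), where MES Mel18 covered 814 bp, Cbx2 3120 bp, Ring1b 1282 bp, RYBP 2158 bp and ESC Mel18 3058 bp with no base in common.

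Cbx2 peaks reached farthest at the narrow sites and RYBP peaks least far. The median covered length in MES was 2411 bp for Mel18 (interval 2346 to 2461), 2855 bp for Cbx2 (2780 to 2926), 2094 bp for Ring1b (2034 to 2155), 1815 bp for RYBP (1755 to 1850) and 2006 bp for ESC Mel18 (1939 to 2058). Cbx2, the subunit of canonical PRC1, covered 91.6% of all member bases, whereas RYBP, the subunit of variant PRC1, covered 58.9%. Mel18 covered 77.2% in MES and 64.0% in ESCs, and Ring1b covered 67.6%. Cbx2 had the longest cover of all lists in 777 members (62.1%) and the shortest in 17. RYBP had the shortest in 562 (44.9%) and the longest in 38. Both traits were more frequent in broad regions, where Cbx2 was the longest in 469 (74.6%) and RYBP the shortest in 457 (72.7%). Over its whole list Cbx2 also had the widest peaks, with a median of 2521.5 bp. RYBP did not have the narrowest peaks over its whole list, at 1486 bp against 1188.5 bp for Ring1b and 1113 bp for ESC Mel18. The median ratio of RYBP to Ring1b length was 0.870 in members and 0.999 in all regions with both lists. Bases covered by Cbx2 alone made up 10.7% of the member bases, against 2.67% for MES Mel18, 0.910% for Ring1b, 0.616% for RYBP and 1.20% for ESC Mel18.

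**Figure D1:**
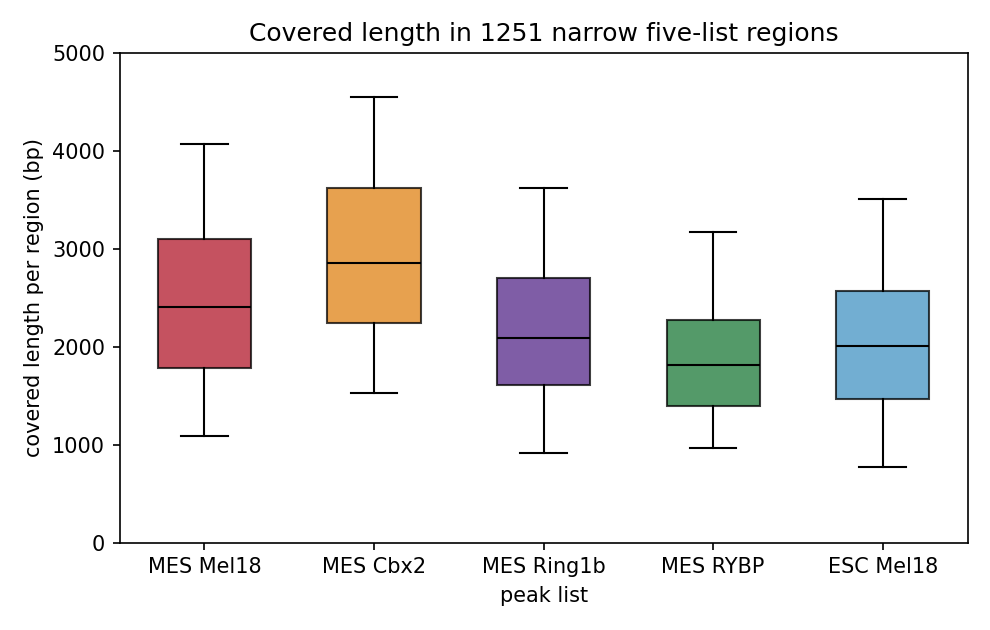
Covered length in bp (y axis) of each peak list (x axis) over the 1251 narrow five-list regions. Boxes span the quartiles with the median as a line, and whiskers run from the 5th to the 95th percentile of regions. The Cbx2 box lies highest, with a median of 2855 bp, and the RYBP box lowest, with 1815 bp.

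Ranked by covered length, the 4 MES lists fell most often in the order Cbx2, Mel18, Ring1b, RYBP. That order was found in 365 members (29.2%) and in 391 broad regions (62.2%). The orders next in number at the members were Cbx2, Mel18, RYBP, Ring1b in 166 and Mel18, Cbx2, Ring1b, RYBP in 156. Among the 1251 members 23 orders occurred, and among the 629 broad regions 17. The span from first start to last end of Cbx2 enclosed that of RYBP in 924 members (73.9%), that of Ring1b in 783 (62.6%) and that of Mel18 in 551 (44.0%). In broad regions Cbx2 enclosed RYBP in 92.8% and Mel18 in 52.8%. MES Mel18 and Cbx2 were staggered, with each reaching past the other on 1 side, in 568 members (45.4%).

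The extent of each list was also read at fixed distances from the middle of the longest stretch common to all lists, in the 1223 members that had one. At this point all lists are present by construction. At 1000 bp from it, averaged over both sides, 62.2% of members were covered by MES Mel18, 75.8% by Cbx2, 49.8% by Ring1b, 37.4% by RYBP and 46.0% by ESC Mel18. At 2000 bp the shares were 11.2, 18.7, 7.36, 3.31 and 5.23%. The left and right sides were close, for instance 75.4 and 76.3% for Cbx2 at 1000 bp. Peaks of Cbx2 extended a median of 1495 bp beyond the longest common stretch, both sides summed, and those of RYBP 395 bp. In the 201 members with several common pieces, the other pieces and the gaps between them count as lying beyond it. In 193 members (15.8%) RYBP did not reach past the longest common stretch at all, whereas Cbx2 did so in each of the 1223.

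**Figure D2:**
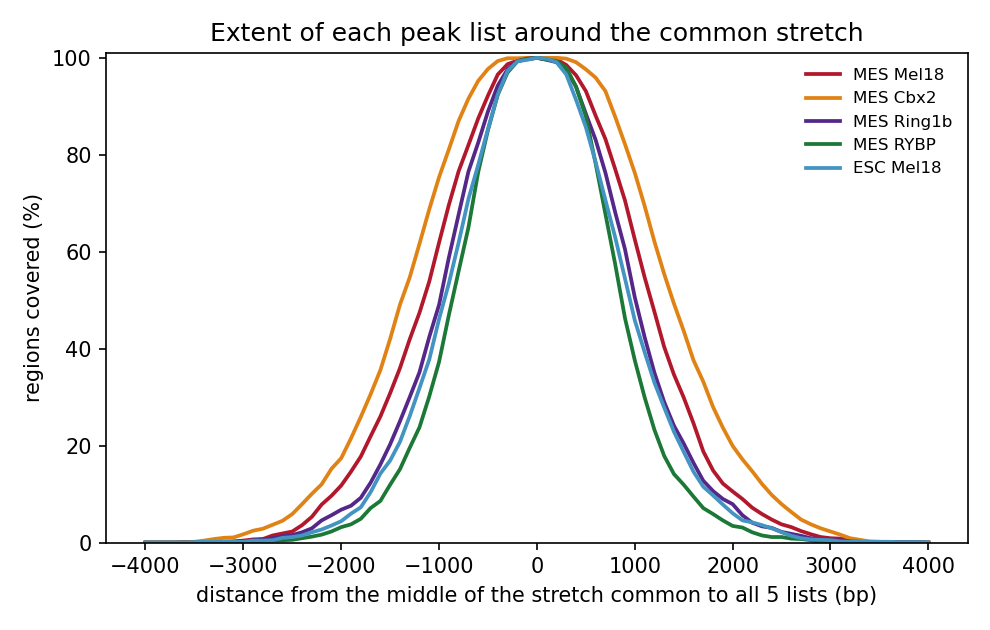
Share of members covered (y axis, %) by each peak list in 1223 narrow five-list regions. The x axis gives the distance in bp from the middle of the longest stretch common to all 5 lists. All curves meet 100% at 0 by construction. The Cbx2 curve is the widest, at 75.8% of members 1000 bp away, and the RYBP curve the narrowest, at 37.4%.

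Between cell states, Mel18 covered a longer stretch in MES than in ESCs at most narrow sites. The median ratio of MES to ESC Mel18 length was 1.19 (interval 1.16 to 1.22). The MES length was the greater in 897 of 1251 members (71.7%, interval 69.1 to 74.2), against 75.2% of all 2479 merged regions that held both lists. It was at least 1.5-fold longer in 323 members (25.8%), against 30.4% of those regions, and at least 1.5-fold shorter in 68 (5.44%), against 5.61%. In broad regions the median ratio was 1.39 and MES was the longer in 585 of 629 (93.0%). The members' ratio thus lay below that of the broad regions. With single samples of unknown depth, longer cover in MES cannot be told apart from a difference in depth or calling between the libraries.

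The MES Mel18 span enclosed the ESC Mel18 span in 606 members (48.4%, interval 45.6 to 51.3) and was enclosed by it in 167 (13.3%). In 471 (37.6%) the spans were staggered, and in 7 they lay apart. In broad regions MES enclosed ESC in 76.2% and was staggered with it in 19.1%. ESC Mel18 was also the list most often split: 96 members (7.67%) held 2 or more MES Mel18 peaks, and 236 (18.9%) held 2 or more ESC Mel18 peaks. Broad regions had the same order, with 2 or more MES Mel18 peaks in 250 (39.7%) and 2 or more ESC Mel18 peaks in 337 (53.6%). In 199 members several ESC Mel18 peaks faced a single MES Mel18 peak, and in 59 it was the reverse. The member with the most peaks of 1 list lay on chromosome 19 (53384625 to 53389286), where 4 ESC Mel18 peaks with 4232 bp of cover faced 1 MES Mel18 peak of 4334 bp. There the extent of Mel18 was nearly the same in both states although the number of peaks was not.

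The ratio of MES to ESC Mel18 length ran from 0.239 to 6.63 among the members. Extremes were named among the 847 members with 1 peak of each list. The highest ratio was on chromosome 7 (126136993 to 126140513), where Mel18 covered 3521 bp in MES and 531 bp in ESCs, a ratio of 6.63, and where no base was common to all 5 lists. Next came chromosome 1 (156729954 to 156732373) with 2420 bp in MES and 433 bp in ESCs. On chromosome 11, 1 site (97405967 to 97410724) had 3263 bp in MES and 619 bp in ESCs, and another (101886704 to 101889589) had 1729 bp in MES and 335 bp in ESCs. At these 4 sites the ESC Mel18 peak was at percentiles from 10.01 to 39.3 of its list.

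At the other end, Mel18 was shorter in MES on chromosome 2 (109532222 to 109535453), with 814 bp in MES and 3058 bp in ESCs, a ratio of 0.266. On chromosome 1 (156944224 to 156947461) it covered 903 bp in MES and 2946 bp in ESCs. The site on chromosome 17 (86565289 to 86569772) had 1193 bp in MES and 3512 bp in ESCs, and that on chromosome 7 (96665121 to 96667059) had 681 bp in MES and 1939 bp in ESCs. Cbx2, Ring1b and RYBP each covered more of these 4 sites than MES Mel18 did. On chromosome 17, for instance, Cbx2 covered 4268 bp, Ring1b 3312 bp and RYBP 3012 bp. The MES Mel18 peak there was at percentile 63.8 of its list. At the other sites it was weak, at percentile 12.3 on chromosome 2, 8.92 on chromosome 1 and 20.5 on chromosome 7. At these 4 sites, picked as extremes, Ring1b, Cbx2 and RYBP were thus listed over sequence outside the MES Mel18 peak. Whether Mel18 signal too weak to be called lay there was not tested.

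The other MES subunits, set against ESC Mel18, differed in extent. Cbx2 covered a median of 1.40 times the ESC Mel18 length (interval 1.36 to 1.43) and was longer in 1060 members (84.7%), against 88% of all regions with both lists. It was at least 1.5-fold longer in 537 (42.9%), against 47.8%, and at least 1.5-fold shorter in 7 (0.560%), against 0.667%. Ring1b had a median ratio of 1.04 (1.02 to 1.06) and was longer in 687 (54.9%), against 59.6%. It was at least 1.5-fold longer in 198 (15.8%), against 19.9%, and shorter by that much in 107 (8.55%), against 10.3%. RYBP had a median ratio of 0.909 (0.885 to 0.929) and was longer in 466 (37.3%), against 44.1%. It was at least 1.5-fold longer in 167 (13.3%), against 18.8%, and shorter by that much in 220 (17.6%), against 14.3%. Antibody and cell state both differ in these 3 contrasts and cannot be told apart.

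Among the members, the ratios of MES Mel18 and Cbx2 were higher in each wider class. In members under 2 kb, of 2 to 3, 3 to 4 and 4 to 5 kb, the median for MES Mel18 was 1.06, 1.13, 1.24 and 1.28. Cbx2 had 1.16, 1.33, 1.44 and 1.56 in these classes, and Ring1b 0.996, 0.990, 1.07 and 1.08. RYBP showed no steady course, with 0.939, 0.892, 0.943 and 0.877. Beyond the limit, at 5 to 10 kb and at 10 kb or more, MES Mel18 had 1.39 and 1.38, Cbx2 1.66 and 1.46, Ring1b 1.23 and 1.27 and RYBP 0.874 and 0.802. The Cbx2 ratio was thus lower in the widest regions than in the class before. MES Mel18 was longer than ESC Mel18 in 59.8% of the narrowest class of members and in 80.7% of the widest. The merged width runs from the outermost start to the outermost end over all lists. A Cbx2 peak set at least 1 of these ends in 914 members, so width and ratio are not independent.

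**Figure D3:**
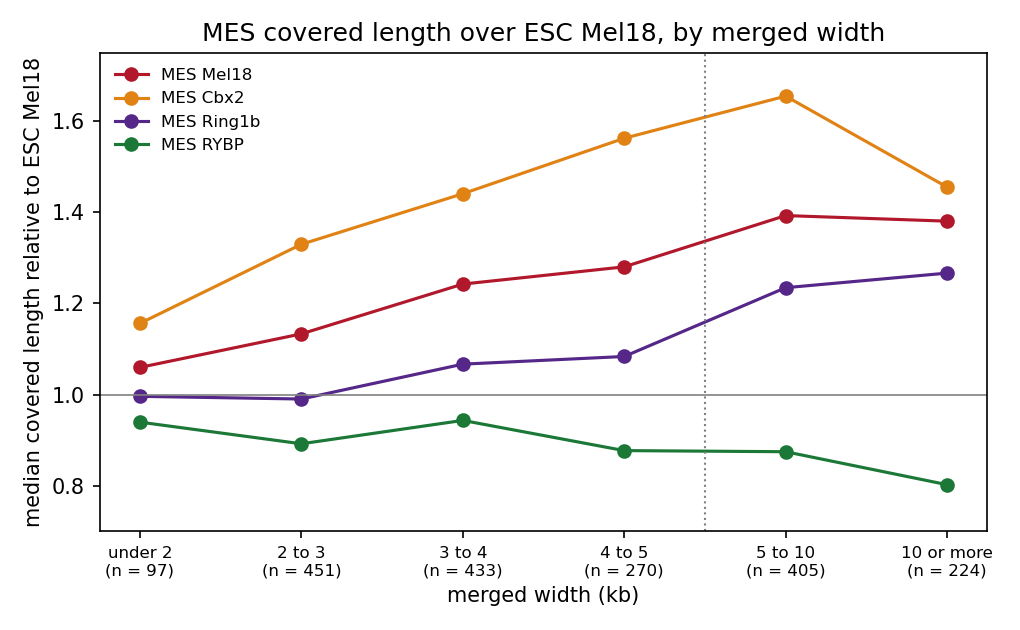
Median covered length of each MES list relative to ESC Mel18 (y axis, ratio) by class of merged width in kb (x axis, with the number of regions). The dotted line marks the limit of 5 kb between narrow and broad five-list regions, and the grey line a ratio of 1. MES Mel18 stands at 1.06 in the narrowest class and 1.28 in members of 4 to 5 kb, whereas RYBP stays below 1 in every class.

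Within MES, Cbx2 covered a median of 1.15 times the Mel18 length (interval 1.13 to 1.17), Ring1b 0.876 times (0.864 to 0.893) and RYBP 0.761 times (0.744 to 0.778). Cbx2 was at least 1.5-fold longer than Mel18 in 253 members (20.2%), against 20% of all regions with both lists, and that much shorter in 13 (1.04%), against 1.11%. Ring1b was at least 1.5-fold longer in 49 (3.92%), against 4.77%, and that much shorter in 197 (15.7%), against 15.6%. RYBP was at least 1.5-fold longer in 71 (5.68%), against 7.92%, and that much shorter in 442 (35.3%), against 36.5%. The members' shares were near those of all regions for each of these pairs. Between RYBP and Cbx2 the median ratio was 0.654 in members and 0.538 in broad regions, and by width class it was 0.836 under 2 kb and 0.568 at 4 to 5 kb.

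Single sites departed widely from these medians, and those named here are the extremes among the 847 members with 1 peak of each list. Cbx2 outreached Mel18 the most on chromosome 15 (83609023 to 83612191), with 3169 bp of Cbx2 and 691 bp of Mel18. Another site there (98505020 to 98509452) had 4433 bp of Cbx2 and 1056 bp of Mel18. Neither site had a base common to all 5 lists, and their Mel18 peaks were at percentiles 12.2 and 6.53. Mel18 outreached Cbx2 on chromosome 9 (95648563 to 95651306), with 1440 bp of Cbx2 and 2744 bp of Mel18. On chromosome 1 (55462083 to 55465121) there were 1718 bp of Cbx2 and 3026 bp of Mel18. The Cbx2 peaks of these sites were at percentiles 13.1 and 50.6. The highest ratios of Ring1b to Mel18 belonged to the sites on chromosomes 1 and 17 where Mel18 was short in MES, at 3.59 and 2.78. The lowest was on chromosome 5 (36826844 to 36829315), with 714 bp of Ring1b and 2472 bp of Mel18. Next was chromosome 16 (38741115 to 38743407), with 543 bp of Ring1b and 1752 bp of Mel18. Their Ring1b peaks were at percentiles 7.28 and 25.6, and the site on chromosome 16 had no base common to all 5 lists.

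RYBP was longest relative to Mel18 on chromosome 14 (13653589 to 13655869), with 2144 bp of RYBP and 727 bp of Mel18. Next was chromosome 4 (35171268 to 35173915), with 1429 bp of RYBP and 519 bp of Mel18. At that site the Mel18 peak ended at 35171786 and the RYBP peak began at 35172487, so they shared no base. Their percentiles were 19.1 for Mel18 and 23.5 for RYBP. RYBP was shortest relative to Mel18 on chromosome 15 (48621014 to 48623923), with 450 bp of RYBP and 2828 bp of Mel18. No base of this site was common to all lists. There Cbx2 covered 2803 bp and Ring1b 2628 bp, at percentiles 79.5 and 84.3 of their lists, while the RYBP peak was at percentile 3.66. On chromosome 3 (127490823 to 127494803) RYBP covered 794 bp and Mel18 3791 bp. At both sites Mel18, Cbx2 and Ring1b were each listed over most of the region and RYBP over a small piece of it.

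The lists were centred close together, which the choice of joined peaks under 5000 bp of merged width in part fixes. Measured between the middles of their spans, the distance from MES Mel18 had a median of 193 bp for Cbx2 (interval 180.5 to 204), 185 bp for Ring1b (171.5 to 199.5), 238.5 bp for RYBP (224.5 to 257.5) and 199.5 bp for ESC Mel18 (182.5 to 220). The centre lay within 250 bp of that of MES Mel18 in 62.5% of members for Ring1b, 59.1% for Cbx2, 58.8% for ESC Mel18 and 51.6% for RYBP. It lay more than 500 bp away in 272 members (21.7%) for RYBP and in 167 (13.3%) for each of the other 3 lists. Offsets went to both sides, with 658 members where the ESC Mel18 centre had the higher coordinate and 591 where it had the lower. In broad regions the distances were longer in bp, with medians of 293.5 bp for Cbx2, 270.5 bp for Ring1b, 485 bp for RYBP and 391 bp for ESC Mel18. Against width, the median offset was 6.35% of the member for Cbx2, 6.03% for Ring1b, 7.80% for RYBP and 6.57% for ESC Mel18, and in broad regions it was smaller, at 2.95, 2.70, 5.45 and 4.18%.

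By score, the narrow sites held middling to high peaks of every list, ranked below those of broad regions. The median percentile in MES was 63.7 for Mel18 (interval 62.2 to 65.0), 59.2 for Cbx2 (57.5 to 60.6), 79.3 for Ring1b (78.3 to 80.4), 68.8 for RYBP (67.3 to 70.9) and 72.2 for ESC Mel18 (71.2 to 73.6). In broad regions the medians were 95.2, 90.3, 95.7, 90.3 and 92.8 in the same order. A region takes its highest-scoring peak, and broad regions more often held several, for ESC Mel18 in 53.6% against 18.9% of members. Among members the MES Mel18 percentile also rose with width, from 43.8 under 2 kb to 78.4 at 4 to 5 kb. How much of the gap between narrow and broad regions went with either was not tested. Scores pile up at 3100 in every list but RYBP, and 323 broad regions but only 9 members reached that value in MES Mel18. Percentiles of different lists rest on different numbers of peaks: the Ring1b list has 8434 and the Cbx2 list 3600. The order of lists by percentile is therefore no order of binding.

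**Figure D4:**
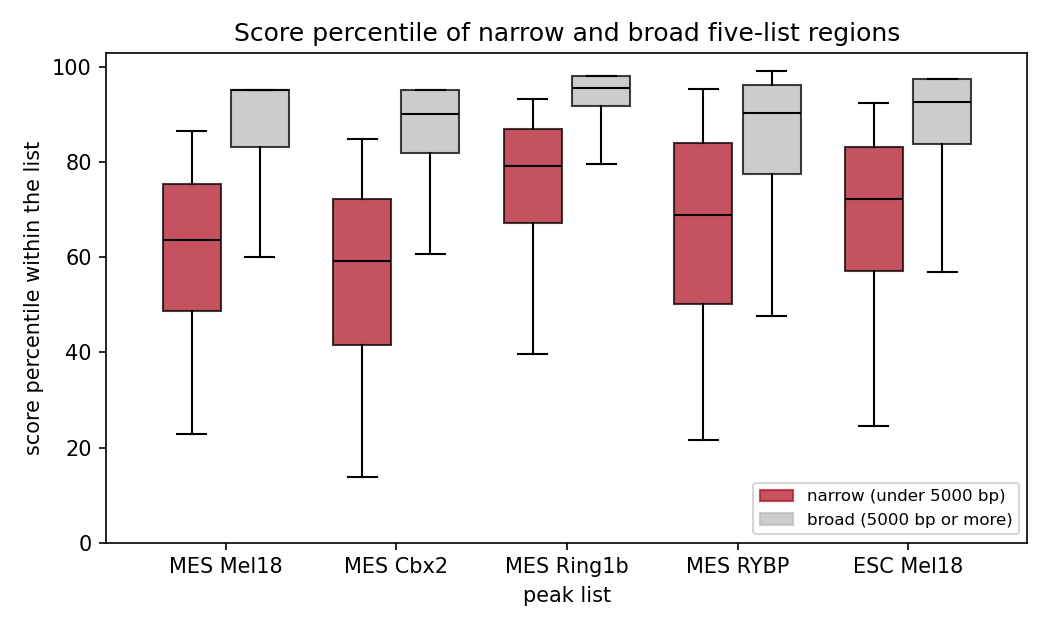
Percentile of the authors' score within its own list (y axis) for each peak list (x axis), in 1251 narrow regions (left box of each pair) and 629 broad regions (right box). Boxes span the quartiles with the median as a line, and whiskers run from the 5th to the 95th percentile of regions. For MES Mel18 the medians are 63.7 in narrow and 95.2 in broad regions.

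Few members were near the top in every list. All 5 percentiles were at or above 75 in 118 members (9.43%), against 391 broad regions (62.2%), and all were at or above 50 in 544 (43.5%), against 549 (87.3%). In 286 members (22.9%) no list reached percentile 75, and in 20 no list reached 50. The gap between the highest and lowest of the 5 percentiles had a median of 35.8 points in members and 13.4 points in broad regions, and it was over 50 points in 319 members (25.5%). The lowest of the 5 was Cbx2 in 483 members, RYBP in 326, MES Mel18 in 203, ESC Mel18 in 199 and Ring1b in 40.

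The member with the highest floor lay on chromosome 18 (23196075 to 23200819), with percentiles of 95.2 for MES Mel18, 95.3 for Cbx2, 96.0 for Ring1b, 95.8 for RYBP and 92.8 for ESC Mel18. There MES Mel18 covered 4237 bp, Cbx2 3866 bp, Ring1b 3617 bp, RYBP 2821 bp and ESC Mel18 3883 bp. It was followed by chr9:111213075-111217175, chr1:39248637-39253515, chr5:81448242-81452499, chr14:33409587-33414176 and chr11:11013229-11017885, whose lowest percentiles ran from 87.5 to 90.6. At all 6 of these sites RYBP had the shortest cover of the 5 lists, and all were wider than 4 kb.

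The lowest floors came from a single weak list each. On chromosome 14 (68699937 to 68703384) Cbx2 was at percentile 0.139, whereas MES Mel18 was at 70.1, Ring1b at 78.3, RYBP at 64.8 and ESC Mel18 at 92.6. The sites on chromosome 2 (94112485 to 94115179 and 101636003 to 101638783) also had their lowest value in Cbx2, at 0.292 and 0.458, with Ring1b at 69.1 and 74.3. On chromosome 10 (126484754 to 126487742) it was RYBP that was lowest, at 0.434, with Cbx2 at 57.6. The weak Cbx2 peaks were not short, at 3115, 2377 and 2711 bp. A list stood below percentile 25 while the other 4 were at or above 50 in 21 members for RYBP, 14 for Cbx2, 13 for ESC Mel18, 2 for MES Mel18 and 1 for Ring1b. Whatever the other lists, 82 members (6.55%) were below percentile 25 for RYBP, 133 (10.6%) for Cbx2 and 65 (5.20%) for ESC Mel18. For MES Mel18 there were 74 (5.92%) and for Ring1b 26 (2.08%). In broad regions these shares were 1.59, 0.795, 0.636, 0.477 and 0.159% in the same order. The lists differ in length, so these counts do not rank the lists by binding.

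Across members the MES Mel18 percentile ran closest to those of Cbx2 and Ring1b and least close to that of RYBP. Spearman's rho with MES Mel18 over the 1251 members was 0.81 for Cbx2, 0.81 for Ring1b, 0.49 for ESC Mel18 and 0.24 for RYBP. RYBP had rho of 0.32 with Cbx2 and 0.43 with Ring1b. In broad regions the values with MES Mel18 were 0.91 for Cbx2, 0.90 for Ring1b, 0.59 for ESC Mel18 and 0.39 for RYBP. There 323 MES Mel18, 300 Cbx2, 267 Ring1b, 234 ESC Mel18 and 0 RYBP scores were at 3100 or more, where scores pile up. By covered length, rho with MES Mel18 over the members was 0.70 for Cbx2, 0.73 for Ring1b, 0.53 for ESC Mel18 and 0.46 for RYBP. All these values of rho are descriptions across regions that share their libraries and were chosen for holding all lists. RYBP was at or above percentile 75 with Cbx2 below 50 in 129 members, and Cbx2 at or above 75 with RYBP below 50 in 28. The lists differ in length, so the 2 counts do not measure a preference.

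**Figure D5:**
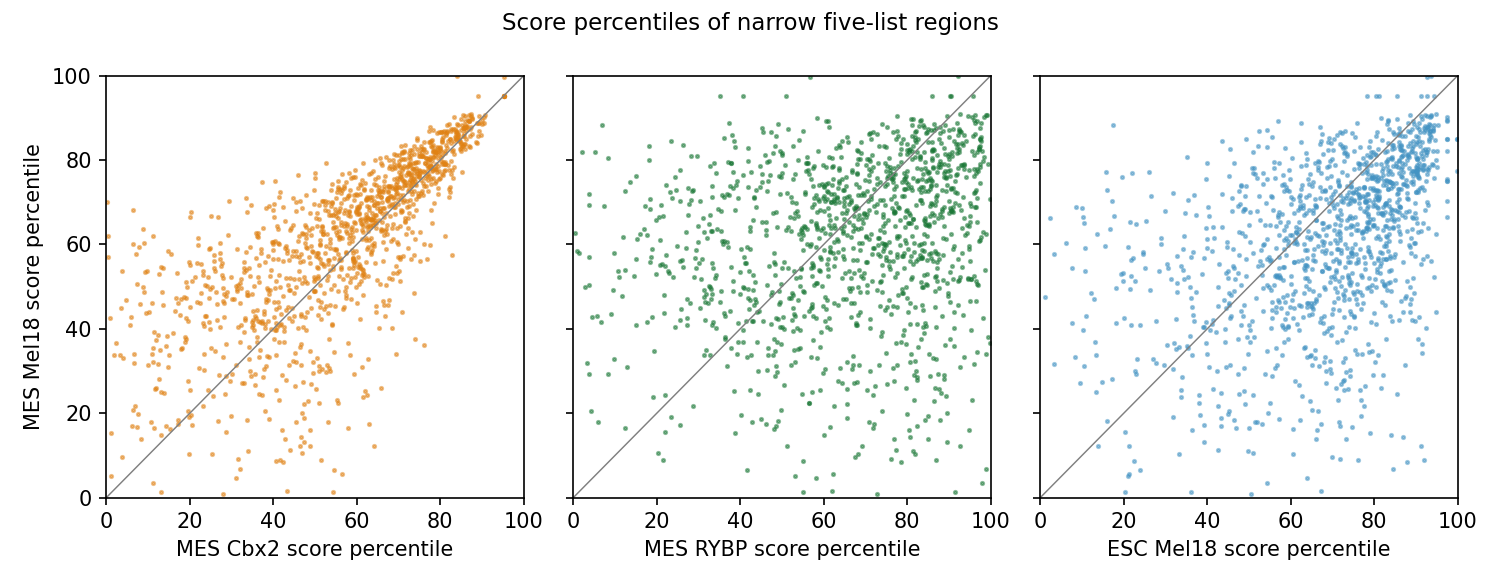
Percentile of the MES Mel18 score (y axis) against that of MES Cbx2 (left), MES RYBP (middle) and ESC Mel18 (right) on the x axes, with 1 point per narrow five-list region and a line of equal percentiles. The points lie closest to the line for Cbx2, with rho of 0.81, and are widely scattered for RYBP, with rho of 0.24.

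Sites with a higher ESC Mel18 percentile also had higher ones for MES Mel18, Cbx2 and Ring1b. With members split into 4 groups by the ESC Mel18 percentile, the median MES Mel18 percentile was 51.8 in the lowest, 59.0 and 65.7 in the middle groups and 77.4 in the highest. The Cbx2 medians were 51.0, 54.2, 59.4 and 71.5, and the Ring1b medians 68.6, 76.1, 79.97 and 88.2. The RYBP medians, at 63.9, 67.9, 66.0 and 79.6, did not climb at each step. The ratio of MES to ESC Mel18 length was 1.63 in the lowest group and 1.06 in the highest. ESC score and ESC length come from the same peaks, and a weak ESC peak is also a short one, at a median of 1133 bp in the lowest group against 2885.5 bp in the highest.

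The members were also set beside narrow regions under the same width limit that lacked exactly 1 list. There were 264 without ESC Mel18, 122 without MES Mel18, 280 without Cbx2, 25 without Ring1b and 127 without RYBP. The MES Mel18 percentile had a median of 63.7 in members, 43.1 without ESC Mel18, 29.8 without Cbx2, 32.5 without Ring1b and 50.1 without RYBP. For ESC Mel18 the medians were 72.2 in members, 47.8 without MES Mel18, 59.9 without Cbx2, 52.3 without Ring1b and 54.1 without RYBP. In each set where RYBP was present its median lay closest to that of members, with 68.8 in members, 63.5 without ESC Mel18, 65.2 without MES Mel18, 57.7 without Cbx2 and 53.2 without Ring1b. Members were wider, with a median of 3175 bp against 2207 to 2680 bp in these sets. How much of the gaps went with width was not tested.

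The narrowest members differed in score. The narrowest of all lay on chromosome 17 (36282455 to 36283048, 594 bp), where MES Mel18 covered 580 bp, Cbx2 584 bp, Ring1b 560 bp, RYBP 527 bp and ESC Mel18 554 bp. The lists thus had nearly the same bounds, with 516 bp in common. Its percentiles were 78.3 for MES Mel18, 77.2 for Cbx2, 90.2 for Ring1b, 60.7 for RYBP and 66.7 for ESC Mel18. Among the 97 members under 2 kb the medians were lower, at 43.8 for MES Mel18 and 63.1 for Ring1b, and 14 had all lists at or above percentile 50. The next narrowest was on chromosome 3 (93249868 to 93250741, 874 bp), with percentiles from 73.1 to 93.6. That site did not stand alone but lay between nearly adjoining members, which ended at 93249745 and began at 93250815. After it came chromosome 19 (21546403 to 21547407, 1005 bp), with percentiles from 38.7 to 56.9. Whether such short, sharply bounded peaks reflect binding was not tested.

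Narrow sites lay farther from other five-list regions than broad regions did. The nearest other five-list region was a median of 320 kb away (interval 289 to 347), against 151 kb for broad regions. It was over 100 kb away for 923 members (73.8%) and for 356 broad regions (56.6%). No comparison with randomly placed sites was made. Only 80 members (6.39%, interval 5.10 to 7.90) had another five-list region within 10 kb, against 118 broad regions (18.8%). The nearest merged region of any kind was closer, at a median of 43.2 kb. It was over 100 kb away for 366 members (29.3%), against 95 broad regions (15.1%). Such a region lay within 10 kb of 320 members (25.6%) and of 311 broad regions (49.4%). Linked by gaps of at most 10 kb, 1202 members had no other member beside them, 42 came in pairs, 3 formed a run on chromosome 3 (93246296 to 93253567) and 4 a run on chromosome 18 (37880435 to 37903683).

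The 2 runs, picked out after their values were seen, differed from each other. The 3 members on chromosome 3, 1 of them the second narrowest, had Ring1b percentiles of 96.3, 93.6 and 91.7, RYBP percentiles of 98.4, 92.5 and 90.9 and Cbx2 percentiles of 83.4, 81.6 and 71.3. The 4 on chromosome 18 had RYBP percentiles of 29.4, 21.8, 63.8 and 71.8 and MES Mel18 percentiles of 58.6, 43.7, 77.7 and 78.4. RYBP was the lowest of the 5 lists at each site of the run on chromosome 18.

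Every autosome held narrow sites, from 33 on chromosome 14 to 102 on chromosome 11. As a share of the merged regions of a chromosome they ran from 8.15% on chromosome 12 (interval 5.91 to 10.9) to 15.8% on chromosome 18 (12.3 to 19.8), with 10.5% over all. Chromosome 19 had 14.4% (11.1 to 18.2) and chromosome 6 had 13.6% (11.02 to 16.6). Among five-list regions, the narrow ones made up 53.9% on chromosome 12, 54.9% on chromosome 2 and 55.4% on chromosome 13, against 77.8% on chromosome 6 and 77.1% on chromosome 3. Genes and sequences of the sites are not given, since gene models and a genome of the mm9 build were not used here.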

How the data were processed

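The 5 peak lists are the deposited BED files, 1 per ChIP-seq sample. Reads were placed on mm9, and Bowtie and TopHat were named without versions, per the submitters' processing notes. Peak names carry the tag MACS, per the file headers and rows. Nothing used here states how peaks were called, against which control, or from pooled samples. Each deposited score is the authors' value on an unstated scale and was used only as a mid-rank percentile within its list. Deposited starts count from 0 and are printed from 1.

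Peaks on chromosomes 1 to 19 were merged at 1 bp or more of overlap, and covered length is the union of a list's peaks in a region. Named sites are the 6 highest and 4 lowest by their lowest percentile, the 3 narrowest, the 3 nearest the width limit on each side, the extremes of length ratio among members with 1 peak of each list, and the member with most peaks of 1 list. Members, lists and rules were chosen with earlier results of these data known. Merging was tested on simulated data, and on the deposited peaks 0 of 11871 regions differed from those of bedtools 2.31.1. Calculations used scipy 1.17.1, pandas 2.3.3 and numpy 2.4.6 under Python 3.11.15. Alternatives were other joining rules, width limits, score limits, list lengths and measures of length and centre. IgG and RNA-seq samples were not analysed here.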

Additional observations from a re-analysis of the deposited data

Results flagged for a closer look

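On the X chromosome, which the rule leaves out, 23 regions under 5000 bp held peaks of all 5 lists, a signal in peaks that the comparisons did not use. Their median merged width was 2549 bp. MES Mel18 covered a median of 1.13 times the ESC Mel18 length there (interval 1.03 to 1.32) and was the longer in 17 of the 23. The median covered length was 1830 bp for MES Mel18, 2178 bp for Cbx2, 1801 bp for Ring1b, 1186 bp for RYBP and 1925 bp for ESC Mel18. The Y chromosome and the mitochondrial sequence held 0 such regions.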

How the results depend on the processing

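No paired analysis was possible because every list came from 1 sample, which also meant that none could be left out. Of 75 values under alternative settings, 45 stayed within the interval of the reported value (for counts, within 1.5 times), 30 moved beyond it and 0 median ratios of covered length crossed 1. The interval of the Ring1b to ESC Mel18 ratio took in 1 with a limit of 4000 bp (0.995 to 1.04) and with equal lists (0.997 to 1.04). The X chromosome and the limit to members with a base common to all lists were added after the data were examined. The planned share of members with a gene start was not run, since gene models of mm9 were not used here. Members numbered 558 from the higher-scoring 50% of every list and 754 when 3600 peaks were taken from each. Regions were merged anew from the peaks kept in these settings. The cause of the moves was not tested. With those 50%, the Cbx2 to ESC Mel18 length ratio was 1.36 and the common share of the width 48.8%, and with equal lists that ratio was also 1.36. With a limit of 4000 bp the Cbx2 ratio was 1.36, the percentiles of MES Mel18, Cbx2, Ring1b, RYBP and ESC Mel18 were 58.6, 54.1, 76.6, 65.5 and 69.8, and the centre distances of Cbx2 and ESC Mel18 were 179 and 180.5 bp. With a limit of 10000 bp the ratios of MES Mel18, Cbx2 and Ring1b were 1.25, 1.45 and 1.08, and the 5 percentiles were 69.7, 65.8, 83.7, 74.4 and 76.3. With the mean over a region's peaks, the percentiles of MES Mel18, Ring1b and ESC Mel18 were 61.8, 77.8 and 69.1. In members with 1 peak of each list the common share was 46.3%, and the centre distances of Ring1b, RYBP and ESC Mel18 were 165, 221 and 177.5 bp. The share of members near another five-list region was 4.88% within 5 kb and 9.03% within 20 kb. Read depth is unknown and limits every comparison between lists.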
